A study of Homo sapiens with 12 samples.

Results

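The 10 genes described here are FOS, FOSL1, FOSL2, JUN, JUNB, JUND, EGR1, ATF3, IER2 and MYC, 6 subunits of the AP-1 transcription factor and 4 other genes of the immediate early or stress response. They were taken by symbol from a table of 51141 gene symbols, in which all 10 were present, and all 10 had enough counts to be tested among 14447 genes. Messenger RNA had been sequenced in EA.hy926 cells, an established human line that arose by fusing umbilical vein endothelial cells with a lung carcinoma line, so every library comes from a single hybrid line. There were 12 libraries in 4 groups of 3. Control cells received neither treatment, and hypoxia cells spent 8 h in 1% oxygen. TEPA cells received 50 µM TEPA, a chelator that binds copper, for 16 h and then stayed 8 h at normal oxygen, and TEPA+hypoxia cells received the same TEPA and then 8 h in 1% oxygen. The series asks how a lack of copper changes transcription in low oxygen.

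Immediate early genes are transcribed within minutes of a signal, because the factors that switch them on are already present and are activated by kinases. AP-1 is a dimer of a JUN protein with a FOS protein or with a relative such as ATF3; JUN proteins can also pair with each other, while FOS proteins need a partner. JUN is a strong activator, JUNB and JUND activate less strongly in many settings, and FOSL1 and FOSL2 lack the strong activation domain of FOS. In endothelial cells these factors respond to growth factors, shear stress and low oxygen, and act on genes of proteases, adhesion and vessel growth. EGR1 is a zinc finger factor induced by serum and stress through SRF, ATF3 is induced by the integrated stress response, IER2 is a small nuclear protein of the early response, and MYC drives genes of ribosome production and growth.

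Promoters are shown for genes whose RNA levels differ most among the 10 or that moved in low oxygen. RefSeq windows on GRCh38.p14, running from 250 bases before to 50 bases after a transcription start, were found for 8 of the 10 genes (9 windows, since ATF3 has 2 starts). The EGR1 promoter at chr5:138465229-138465478 (plus strand) is shown because it holds the binding boxes of the serum response. The JUNB promoter at chr19:12791236-12791485 (plus strand) is shown because JUNB moved most in hypoxia against control with all libraries and no correction. The JUND promoter at chr19:18281623-18281872 (minus strand) is that of the JUN gene whose RNA has the highest GC content. Capitals mark the CArG boxes, the sites bound by SRF, and CACGT, the reverse complement of ACGTG, in EGR1; TATAAA in JUNB; and TGACGTCA in JUND.
EGR1: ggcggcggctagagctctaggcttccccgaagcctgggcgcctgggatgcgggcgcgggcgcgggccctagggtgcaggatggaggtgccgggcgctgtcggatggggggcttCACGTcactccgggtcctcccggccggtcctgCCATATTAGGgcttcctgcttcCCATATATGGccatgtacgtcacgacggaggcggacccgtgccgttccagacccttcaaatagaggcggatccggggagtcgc
JUNB: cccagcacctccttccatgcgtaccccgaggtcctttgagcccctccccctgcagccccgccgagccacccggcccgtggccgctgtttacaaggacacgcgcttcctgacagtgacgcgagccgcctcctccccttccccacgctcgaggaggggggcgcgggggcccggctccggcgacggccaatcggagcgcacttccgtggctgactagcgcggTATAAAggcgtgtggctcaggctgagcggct
JUND: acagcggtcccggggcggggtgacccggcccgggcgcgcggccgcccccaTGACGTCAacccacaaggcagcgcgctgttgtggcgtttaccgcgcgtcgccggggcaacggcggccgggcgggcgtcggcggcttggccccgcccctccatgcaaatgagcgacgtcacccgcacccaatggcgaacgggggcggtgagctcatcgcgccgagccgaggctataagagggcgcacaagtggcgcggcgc
JUN and the upstream ATF3 start share a site, TGACATCA, a variant of the AP-1 and CRE sites. It is shown in capitals with 10 bases on each side, at chr1:58784097-58784124 (minus strand) for JUN and at chr1:212565274-212565301 (plus strand) for ATF3.
JUN: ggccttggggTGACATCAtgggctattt
ATF3: acctatgataTGACATCAtatggccact

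EGR1 held 2 CArG boxes, at -105 to -96 and -83 to -74 from its start, and was the only one of the 9 windows with this box, which 1.29% of 35116 RefSeq promoter windows of the same length hold. The start itself is counted as 0. The core of a hypoxia response element, ACGTG, was present in 3 windows (EGR1, FOSL2 and IER2) against 21.4% of all windows. TGACATCA was present in 2 of 9 windows, JUN at -67 to -60 and ATF3 at -123 to -116, against 2.61%; this motif was added after the windows had been read, so its count supports nothing. The CRE TGACGTCA was present in 1 window (JUND, at -200 to -193) against 1.85%, and the AP-1 site (TGACTCA or TGAGTCA) in 1 (FOSL2, at 4 to 10) against 4.95%. TATAAA was present in 3 windows, FOS, JUNB and the downstream ATF3 start, against 11.5%, the GC box GGGCGG in 6 against 45%, and the ETS core GGAA in 8 against 95.5%. No window held the E-box CACGTG (7.26% of all, and a motif that contains ACGTG), the EGR site GCGGGGGCG (5.07%) or the C/EBP site TTGCGCAA (0.151%). Both strands were searched, and a match is a run of letters, not a measured binding site.

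Total counts ran from 13406858 in hypoxia 3 to 24778944 in TEPA 1. Hypoxia 2 and hypoxia 3 were unlike the rest. On the first principal component, which carried 76.2% of the variance, they scored 126 and 105, hypoxia 1 scored 11.8 and the other 9 libraries between -51.6 and -8.95. In hypoxia 1, 2 and 3 the difference of a gene from control rose with the GC content of its transcript (Spearman rho 0.379, 0.520 and 0.544 across 12613 genes, which are not independent replicates). Such a trend was not limited to hypoxia: rho was 0.482 in control 3, -0.438 in control 2 (each against the control mean) and 0.379 in TEPA 2, and ran from -0.358 to 0.16 in the other 6 libraries. Of 15 endothelial markers, CLDN5 was at 0 in all libraries, and the summed level was 4135 to 4793 CPM (counts scaled to a common library size by library total and TMM factor) in control and 4606 to 7280 in hypoxia. The single markers went both ways. Of 14 tested in hypoxia against control, 5 had a log2 fold change above 0 and 9 below 0 (median -0.20). Mean CPM in control and hypoxia was 963.1 and 2467 for ENG, 458.5 and 1260 for EGFL7, 684.5 and 410.2 for CDH5, and 600.8 and 452.8 for PECAM1. Of 12 epithelial markers, CDH1, CLDN3 and NKX2-1 were at 0, and the sum was 5444 to 7162 CPM in control and 7692 to 18190 in hypoxia. The sums in TEPA were 4535 to 4716 (endothelial) and 6906 to 7420 (epithelial), and in TEPA+hypoxia 4250 to 4351 and 5728 to 6600. Fibroblast and mural markers (10 genes, COL3A1 and DCN at 0) summed to 51.5 to 108.9 CPM over all libraries, and leukocyte markers (8 genes, PTPRC at 0) to 149.5 to 204.9. Most of each of these sums was 1 gene, RGS5 (mean 77.2 CPM in control) and CD68 (152.5 CPM). The epithelial sum was nearly all KRT7, KRT8 and KRT18 (means of 3979, 1123 and 1230 CPM in control), while KRT19 was at 0.156 and EPCAM at 0.386. The part of GC content and of these marker levels in the results below was not tested beyond the corrected values given beside them. In bulk RNA, a change in the number of cells of a kind and a change in RNA per cell cannot be told apart.

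Control cells held most of their AP-1 RNA as FOSL1 and JUN. Levels of different genes are compared as CPM per kilobase of the longest GENCODE 29 transcript. FOSL1 had 166 ± 12.2 CPM per kilobase (SD, n = 3), above 97.11% of the 12613 tested genes with a length, and MYC 148 ± 1.39, above 96.65%. JUN had 76.7 ± 2.48 and IER2 54.2 ± 2.57. Each of these 4 neighbours in the order differed from the next by more than the SD of either gene. JUND had 35.5 ± 5.81 CPM per kilobase and FOSL2 19.7 ± 0.566. ATF3, at 6.79 ± 0.575, and JUNB, at 6.68 ± 1.32, lay near the middle of all genes and did not differ beyond their spread. FOS, the namesake of the family, had 0.347 ± 0.161 and EGR1 0.277 ± 0.0895, above 7.27% and 5.55% of genes, and these 2 also did not differ beyond their spread. These last levels rest on 8 to 27 counts per library for FOS and 3 to 23 for EGR1 over all 12 libraries, so changes in them are poorly resolved.

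The 10 genes differ widely in structure and base composition, which bears on the hypoxia libraries. JUN (chromosome 1, 58780788 to 58784327, minus strand), JUNB (chromosome 19, 12791496 to 12793315, plus) and JUND (chromosome 19, 18279760 to 18281622, minus) each have 1 exon in their longest transcript, as does IER2 (chromosome 19, 13150415 to 13154908, plus). FOS (chromosome 14, 75278774 to 75282230, plus), FOSL1 (chromosome 11, 65892049 to 65900573, minus), FOSL2 (chromosome 2, 28392448 to 28417312, plus) and ATF3 (chromosome 1, 212565334 to 212620777, plus) have 4 exons. EGR1 (chromosome 5, 138465490 to 138469315, plus) has 2. These are GENCODE 29 gene spans on GRCh38. Transcript GC content was 69.67% for JUND, 64.89% for JUNB, 61.69% for IER2 and 60.04% for FOSL1, and from 50.81% (ATF3) to 56.67% (JUN) for the other 6 genes.

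FOSL1 made up nearly all RNA of the FOS family and JUN most of that of the JUN family. As a share of summed CPM per kilobase, FOSL1 was 88.9 ± 0.85% of FOS, FOSB, FOSL1 and FOSL2 in control (SD, n = 3), FOSL2 10.6%, FOSB 0.372% and FOS 0.183%. JUN was 64.7 ± 4.32% of JUN, JUNB and JUND in control, JUND 29.7 ± 3.57% and JUNB 5.60 ± 0.915%. The make-up in TEPA was close to this, with JUN at 66.3 ± 2.60%, JUND at 28.0 ± 1.98% and JUNB at 5.72 ± 0.705%. In TEPA+hypoxia JUN was 72.9 ± 1.44%, JUND 19.9 ± 1.27% and JUNB 7.15 ± 0.339%, the lowest JUND and highest JUN shares of the 4 groups. The hypoxia libraries split: hypoxia 1 had 65.8% JUN and 26.1% JUND, within the control range of 59.8 to 68.0% and just under that of 26.6 to 33.6%. Hypoxia 2 had 43.3% JUN and 45.2% JUND, and hypoxia 3 50.9% and 38.5%. JUNB was the share that was above control in all 3, at 8.14, 11.5 and 10.6%.

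**Figure D1:**
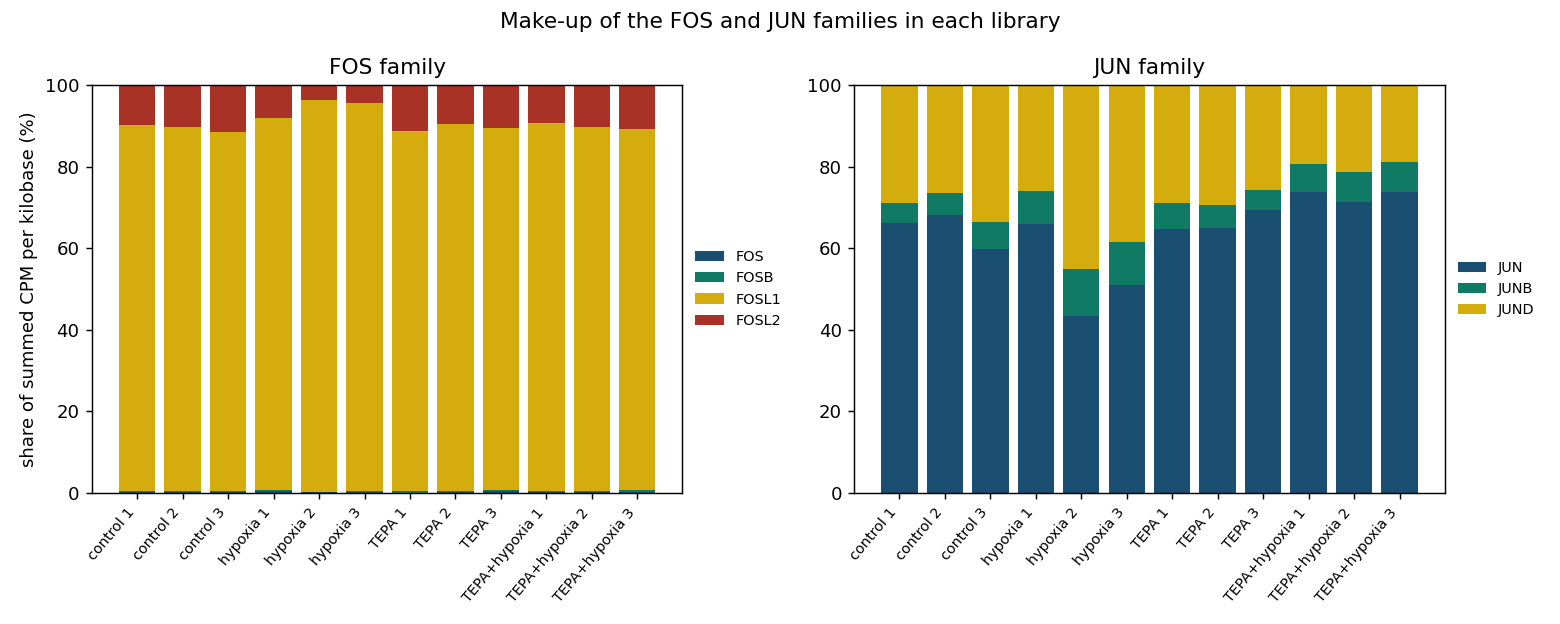
Stacked bars give the share (%) of each gene in the summed CPM per kilobase of its family, FOS family at left and JUN family at right, 1 bar per library. FOSL1 fills between 87.9% (control 3) and 95.9% (hypoxia 2) of each FOS bar, and the JUND band is widest in hypoxia 2 (45.2%) and narrowest in the TEPA+hypoxia libraries (mean 19.9%).

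Low oxygen without TEPA was compared with control first. JUNB, IER2, JUND, FOSL1 and JUN rose and FOSL2 fell, while EGR1, FOS, MYC and ATF3 did not pass the test (edgeR quasi-likelihood F-test, Benjamini-Hochberg adjusted p under 0.05 over 14447 genes). That is 6 of 10 genes, 5 higher and 1 lower, where 57.2% of all genes tested were called in this comparison (29.4% higher and 27.8% lower). The share called among the 10 is thus near that of all genes. Their median log2 fold change in this fit was 0.53, against -0.01 for all genes. The same 5 genes were higher in all 3 hypoxia libraries than in any control and the same 1 lower, against 27.4% and 28.2% of all genes (55.6% in either direction). Without hypoxia 2 and 3, which leaves hypoxia 1 alone and assumes that it varies like the other groups, 2 of 10 genes were called, JUNB and JUN, against 0.513% of 15195 genes tested. With the GC and length correction 4 of 10 were called (JUNB and IER2 higher, EGR1 and MYC lower), against 43.2% of the 12613 genes that could be corrected. The median of the 10 genes was then -0.13, with 4 values above 0 and 6 below. It was 0.27 without hypoxia 2 and 3, so its sign depended on the fit.

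**Figure D2:**
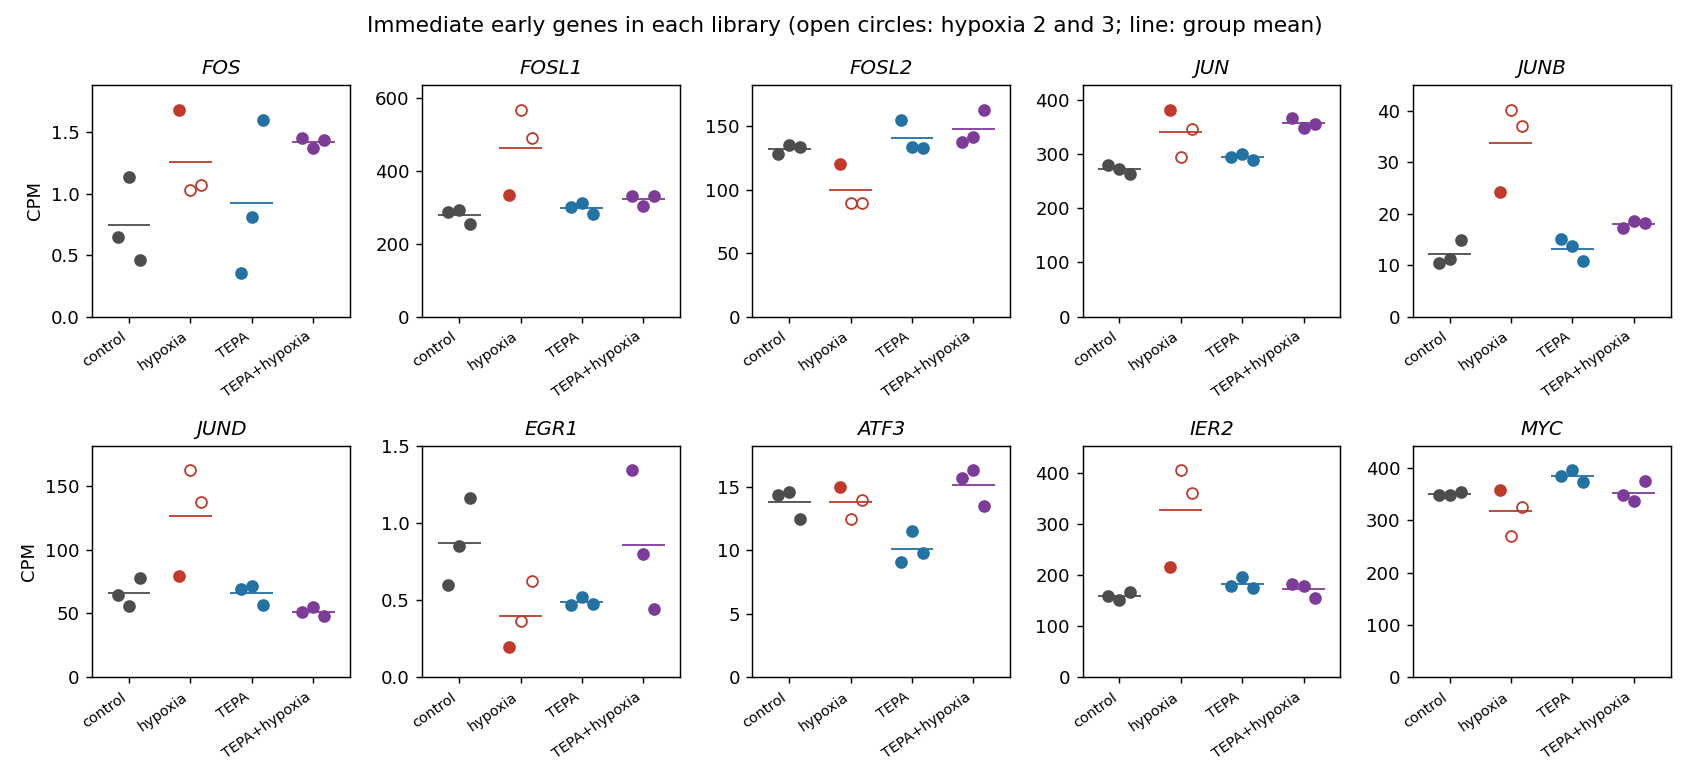
Points give CPM (linear axis from 0) of each gene in each of the 12 libraries by group, with a line at the group mean; open circles are hypoxia 2 and 3. JUNB, IER2, JUND and FOSL1 are highest in the open circles, with hypoxia 1 closer to control, whereas JUN is highest in hypoxia 1 (382 CPM).

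JUNB had 10.4, 11.1 and 14.9 CPM in the control libraries (1 to 3) and 24.3, 40.2 and 37.0 in the hypoxia libraries (1 to 3). All 3 hypoxia libraries lay above all controls, hypoxia 1 included. The log2 fold change was 1.48 ± 0.21 (SE; 2.78-fold, adjusted p = 0.00601). It was 1.00 ± 0.19 (adjusted p = 0.0453) without hypoxia 2 and 3, and 0.47 ± 0.14 (adjusted p = 0.0235) once GC content and transcript length had been corrected for in each library. Of the 25 alternative fits, 24 called JUNB higher, so its direction did not rest on the libraries that stood apart, though its size did.

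JUN, the main activator among the JUN proteins, had 280, 273 and 262 CPM in control and 382, 295 and 346 in hypoxia. The highest value was in hypoxia 1 and the lowest of the group, in hypoxia 2, was still above all controls. JUN rose by 0.33 ± 0.10 on the log2 scale (1.25-fold, adjusted p = 0.0155), and by 0.49 ± 0.08 (adjusted p = 0.0255) without hypoxia 2 and 3. With the GC and length correction its value was 0.20 ± 0.10 (adjusted p = 0.122), and 0.44 ± 0.07 (adjusted p = 0.00518) with the correction and without hypoxia 2 and 3. The call was lost when control 2 (adjusted p = 0.0517), control 3 (0.0532) or hypoxia 3 (0.0578) was left out, with no filter (0.28, adjusted p = 0.11), and with scaling by library totals (0.11, adjusted p = 0.556), a scaling under which the median of all genes was -0.24.

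JUND had 64.5, 56.1 and 77.6 CPM in control and 79.6, 162 and 138 in hypoxia. Hypoxia 1 was just above control 3, and the other hypoxia libraries were far above. The log2 fold change was 0.94 ± 0.22 (adjusted p = 0.00691) with all libraries, 0.27 ± 0.16 (adjusted p = 0.346) without hypoxia 2 and 3, and -0.21 ± 0.09 (adjusted p = 0.0631) with the GC and length correction. JUND has the highest GC content of the 10 genes, and the sign of its difference changed with that correction.

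FOSL1, the FOS gene with the most RNA in these cells, had 287, 291 and 254 CPM in control and 334, 567 and 489 in hypoxia. As with JUND, hypoxia 1 was close to control and the other hypoxia libraries were not. Its log2 fold change was 0.74 ± 0.16 (1.67-fold, adjusted p = 0.00601), 0.27 ± 0.10 (adjusted p = 0.151) without hypoxia 2 and 3, and -0.18 ± 0.12 (adjusted p = 0.23) with the correction. FOSL2 had 128, 135 and 134 CPM in control and 120, 89.8 and 89.8 in hypoxia. It fell by 0.41 ± 0.13 on the log2 scale (adjusted p = 0.0191), but the value was -0.14 ± 0.11 (adjusted p = 0.465) without hypoxia 2 and 3 and -0.09 ± 0.07 (adjusted p = 0.344) with the correction. The FOSL2 call was also lost when control 2 (adjusted p = 0.0586), hypoxia 2 (0.0643) or hypoxia 3 (0.0731) alone was left out.

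IER2 had 159, 152 and 167 CPM in control and 217, 405 and 361 in hypoxia. Every hypoxia library was above every control. It rose by 1.04 ± 0.18 on the log2 scale (2.06-fold, adjusted p = 0.00601). The value was 0.45 ± 0.11 (adjusted p = 0.0757) without hypoxia 2 and 3, 0.51 ± 0.09 (adjusted p = 0.00622) with the correction, and 0.27 ± 0.07 (adjusted p = 0.0498) with both. IER2 and JUNB were the genes of high GC content that stayed higher with the correction.

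The other 4 genes showed no call with all libraries. FOS had 0.645, 1.13 and 0.464 CPM in control and 1.68, 1.03 and 1.07 in hypoxia (log2 fold change 0.77 ± 0.49, adjusted p = 0.196). EGR1 had 0.599, 0.851 and 1.16 CPM in control and 0.194, 0.367 and 0.624 in hypoxia, which is 13 to 20 counts against 3 to 7 (log2 fold change -1.17 ± 0.50, adjusted p = 0.0651). In both genes the groups overlapped, and the low counts leave wide errors. EGR1 passed the threshold with the GC and length correction (-1.32 ± 0.48, adjusted p = 0.042). ATF3 had 14.4, 14.6 and 12.5 CPM in control and 15.0, 12.5 and 14.0 in hypoxia, a log2 difference of 0.00 ± 0.14 (adjusted p = 0.988). MYC (chromosome 8, 3 exons) had 349, 349 and 355 CPM in control and 359, 271 and 326 in hypoxia. MYC in hypoxia 1 lay above all controls and in hypoxia 2 and 3 below all of them (log2 fold change -0.14 ± 0.10, adjusted p = 0.263); with the correction it was -0.44 ± 0.14 (adjusted p = 0.0253). The MYC difference without hypoxia 2 and 3 was 0.03 ± 0.08 (adjusted p = 0.844).

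In hypoxia 2 and 3 these differences split by transcript GC content. JUNB, IER2, JUND and FOSL1, the 4 genes over 60% GC, were the 4 furthest above control there, and FOSL2 and MYC lay below control. Within each side of that split the differences did not follow the order of GC content, since JUND, with the highest, lay below JUNB and IER2. In hypoxia 1 JUNB and JUN were the furthest above control. This is a description of 8 genes, without FOS and EGR1, whose counts are too low to be placed.

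**Figure D3:**
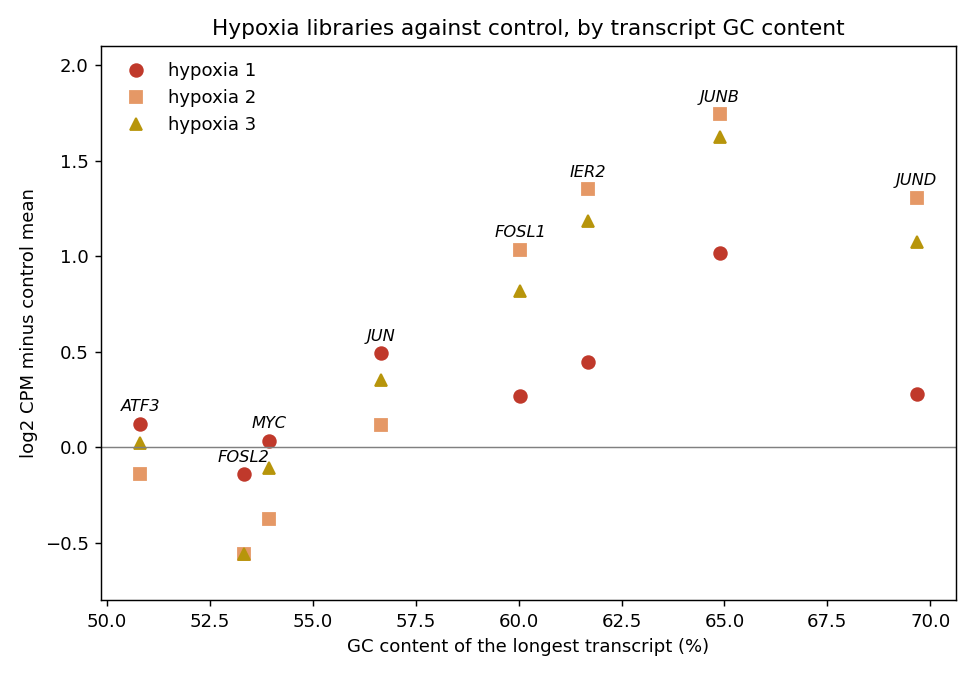
The log2 CPM of 8 genes in each hypoxia library minus the control mean (vertical axis) is plotted against the GC content of the longest transcript in % (horizontal axis), 1 symbol per library. Hypoxia 2 and 3 lie above hypoxia 1 for the 4 genes over 60% GC and below it for the 4 genes between 50.81% and 56.67%.

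Low oxygen in cells that had received TEPA was compared with TEPA alone, a comparison that uses neither hypoxia 2 nor hypoxia 3 for its levels. JUN, JUNB and ATF3 were higher in every TEPA+hypoxia library than in any TEPA library, and JUND was lower in every one. That is 3 higher and 1 lower of 10 genes, where 12.5% and 18% of all genes did not overlap (30.5% in either direction). With the spread estimated over all 12 libraries, none of the 10 was called, where 0.0969% of all genes were. An unadjusted p under 0.05 was found for 3 of the 10 (ATF3, JUN and JUNB) and for 1110 of all 14447 genes. DESeq2 called 1, where it called 1.05% of all genes, and limma-voom none (0.0831% of all genes). The fit without hypoxia 2 and 3, which lowers the estimated spread, called 2 of 10, ATF3 and JUN, against 2.17% of all genes. Leaving out hypoxia 1 alone gave 1 call, ATF3, against 1.72% of all genes.

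JUN had 295, 300 and 290 CPM in TEPA 1 to 3 and 367, 349 and 356 in TEPA+hypoxia 1 to 3. The libraries within each group lay close together and the groups were well apart. The log2 fold change was 0.28 ± 0.10 (1.21-fold, adjusted p = 0.489) with all libraries and 0.29 ± 0.06 (adjusted p = 0.0266) without hypoxia 2 and 3. The JUN value without TEPA was 0.33, and the interaction, the difference between the 2 responses, was -0.05 ± 0.14 (adjusted p = 0.778).

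JUNB had 15.0, 13.7 and 10.7 CPM in TEPA and 17.3, 18.6 and 18.2 in TEPA+hypoxia. Its log2 fold change was 0.45 ± 0.20 (1.37-fold, adjusted p = 0.65) with all libraries, and 0.46 ± 0.14 (adjusted p = 0.0975) without hypoxia 2 and 3. With the GC and length correction added to that fit it was 0.59 ± 0.12 (adjusted p = 0.0116). JUNB was therefore higher in low oxygen in both arms, with a test passed in this arm only under that fit.

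ATF3 had 9.06, 11.5 and 9.79 CPM in TEPA and 15.7, 16.3 and 13.5 in TEPA+hypoxia. All values in TEPA were below those in control (12.5 to 14.6 CPM), and those in TEPA+hypoxia lay around control. The log2 fold change was 0.59 ± 0.14 (adjusted p = 0.21) with all libraries and 0.60 ± 0.13 (adjusted p = 0.0287) without hypoxia 2 and 3, and DESeq2 gave 0.58 (adjusted p = 0.0178). JUND had 69.5, 71.3 and 56.6 CPM in TEPA and 51.0, 55.1 and 48.2 in TEPA+hypoxia (log2 fold change -0.36 ± 0.22, adjusted p = 0.783). No alternative fit called this difference of JUND, which ran opposite to the one without TEPA when all libraries were used.

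The remaining 6 genes overlapped between the 2 groups with TEPA. IER2 had 179, 196 and 174 CPM in TEPA and 183, 178 and 156 in TEPA+hypoxia (log2 fold change -0.09 ± 0.18, adjusted p = 0.92). FOSL1 had 302, 311 and 281 CPM against 331, 302 and 332 (0.11 ± 0.16, adjusted p = 0.877), and FOSL2 155, 134 and 133 against 138, 142 and 163 (0.07 ± 0.13, adjusted p = 0.904). These are 3 of the genes that had been furthest from control in hypoxia 2 and 3. MYC had 385, 396 and 374 CPM against 348, 338 and 375 (-0.12 ± 0.10, adjusted p = 0.816). FOS had 0.353, 0.809 and 1.60 CPM against 1.46, 1.37 and 1.43 (0.68 ± 0.46, adjusted p = 0.799), and EGR1 0.471, 0.520 and 0.475 against 1.34, 0.798 and 0.441 (0.80 ± 0.45, adjusted p = 0.762). The FOS values rest on 9 to 27 counts and the EGR1 values on 8 to 23.

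**Figure D4:**
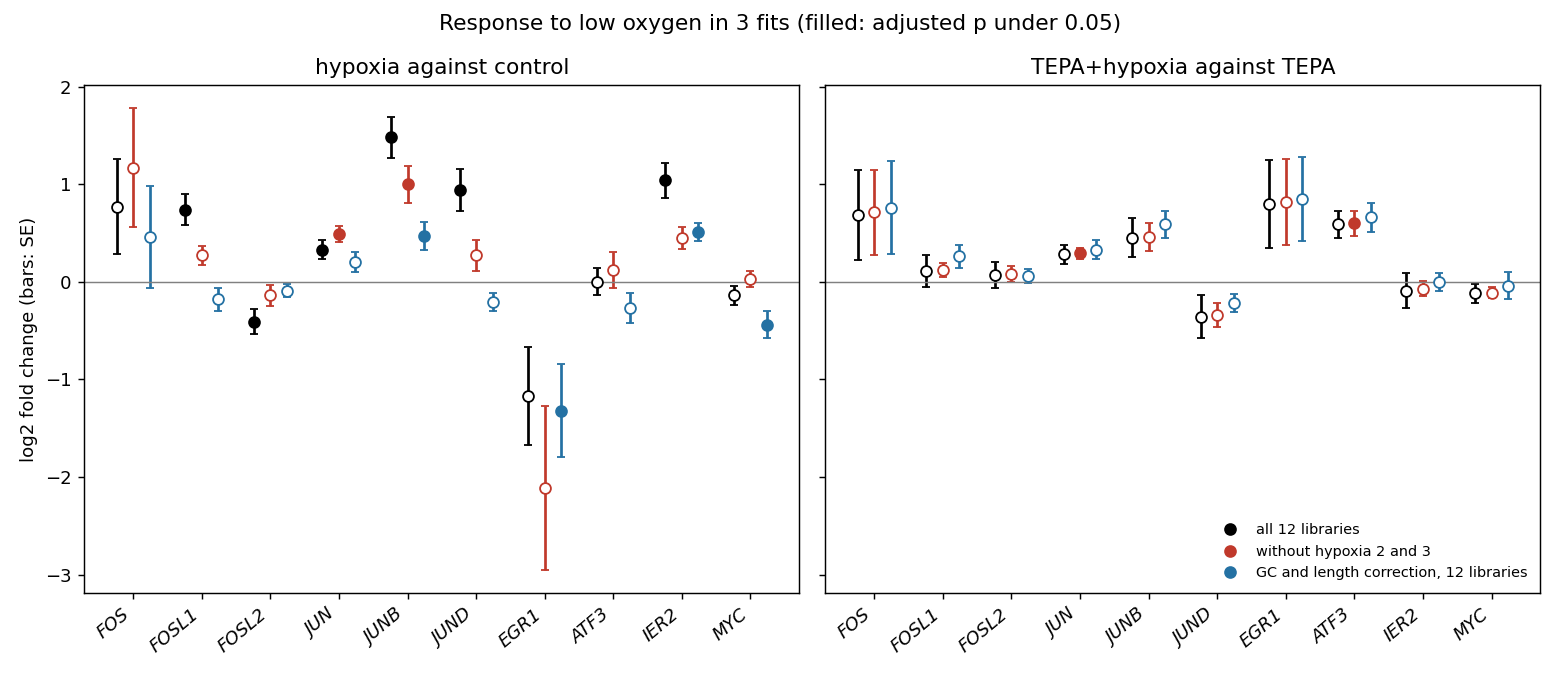
Log2 fold changes with SE bars for the 10 genes in hypoxia against control (left) and TEPA+hypoxia against TEPA (right), with all 12 libraries (black), without hypoxia 2 and 3 (red) and with the GC and length correction (blue); filled points have an adjusted p under 0.05. On the left the 3 fits differ for JUND (0.94, 0.27 and -0.21) and FOSL1 (0.74, 0.27 and -0.18), while on the right they lie close together.

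TEPA at normal oxygen was compared with control. No gene of the table was called by edgeR among 14447 tested (0%), 289 had an unadjusted p under 0.05, and DESeq2 called 6, none of them among the 10; limma-voom called 0. ATF3 was the only one of the 10 with an unadjusted p under 0.05. It was lower in all TEPA libraries than in any control, at 10.1 ± 1.26 CPM (SD, n = 3) against 13.8 ± 1.17, a log2 difference of -0.45 ± 0.14. EGR1 was also lower without overlap (0.489 ± 0.0276 against 0.870 ± 0.281 CPM, log2 difference -0.81 ± 0.45). JUN (295 ± 5.21 against 271 ± 8.78 CPM), MYC (385 ± 10.98 against 351 ± 3.30) and IER2 (183 ± 11.5 against 159 ± 7.54) were higher without overlap, by 0.12 ± 0.10, 0.13 ± 0.10 and 0.20 ± 0.18 on the log2 scale. That makes 5 of 10 genes without overlap, where 13.6% of all genes tested had none (6.64% higher and 6.92% lower). None of the 5 was called in any of the alternative fits.

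TEPA+hypoxia was then compared with hypoxia. FOSL2 was higher (log2 difference 0.56 ± 0.13, adjusted p = 0.00376). JUND was lower by 1.30 ± 0.22 (51.4 ± 3.49 against 126 ± 42.3 CPM, SD, n = 3, adjusted p = 0.00217), and IER2 (-0.93 ± 0.18), JUNB (-0.91 ± 0.20) and FOSL1 (-0.53 ± 0.16) were lower with adjusted p of 0.00236, 0.0036 and 0.0138. These 5 of 10 genes stand against 61.5% of all genes called (30.9% higher and 30.6% lower), again a share near the background. The same 5 did not overlap between the groups, against 32.2% of all genes higher and 30.5% lower (62.7% in either direction). Without hypoxia 2 and 3 the call of JUND alone remained, at -0.62 (adjusted p = 0.028), against 15.2% of all genes. The GC and length correction gave 5 of 10 called higher and 1 lower, against 48.3% of all genes. FOSL1 (0.49 ± 0.12, adjusted p = 0.00749), MYC (0.53 ± 0.14, adjusted p = 0.0104), ATF3 (0.48 ± 0.15, adjusted p = 0.0195), EGR1 (1.36 ± 0.48, adjusted p = 0.0348) and FOSL2 (0.20 ± 0.07, adjusted p = 0.0382) were then higher and IER2 lower (-0.34 ± 0.09, adjusted p = 0.00934), with JUNB at 0.21 ± 0.14 and JUND at -0.06 ± 0.09. The FOSL1 call was lost without hypoxia 2 alone (-0.34, adjusted p = 0.0614), and scaling by library totals, which put the median of all genes at 0.31, gave FOSL1 at -0.21 (adjusted p = 0.115). Values of JUN (0.07 ± 0.10), MYC (0.15 ± 0.10), ATF3 (0.13 ± 0.14), FOS (0.15 ± 0.46) and EGR1 (1.16 ± 0.51) did not pass. This comparison and the one of hypoxia with control share the hypoxia libraries.

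The interaction asked whether the response to low oxygen differed with TEPA. The test called 6 of 10 genes, 2 higher and 4 lower, where 38.8% of all genes were called (17.3% higher and 21.5% lower). JUND (-1.29 ± 0.31, adjusted p = 0.0236), IER2 (-1.13 ± 0.26, adjusted p = 0.0236), JUNB (-1.03 ± 0.29, adjusted p = 0.0246) and FOSL1 (-0.63 ± 0.22, adjusted p = 0.0445) had a lower response with TEPA. EGR1 (1.97 ± 0.68, adjusted p = 0.0406) and ATF3 (0.58 ± 0.20, adjusted p = 0.0384) had a higher one. None of the 6 was called without hypoxia 2 and 3, but that fit called 0 of 15195 genes. Leaving out 1 library at a time gave 0 to 7 calls, where 0% to 66% of all genes were called. There were 0 without control 1, control 2, hypoxia 3, TEPA 2 or TEPA+hypoxia 3, fits that each called 0 of all genes. There were 2 or 3 without hypoxia 2, TEPA 1, TEPA 3, TEPA+hypoxia 1 or TEPA+hypoxia 2. In that order, these last fits called 15.4%, 21.8%, 18.2%, 28.7% and 25.1% of all genes. With the GC and length correction IER2 (-0.52 ± 0.13, adjusted p = 0.034), EGR1 (2.17 ± 0.64, adjusted p = 0.0435) and ATF3 (0.93 ± 0.21, adjusted p = 0.034) were called, against 15.9% of all genes, while JUNB (0.13) and FOSL1 (0.44) changed sign and JUND was at -0.00.

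Genes that act with the 10 were read from fixed lists. The counts of called genes in hypoxia against control stand beside 57.2% of all genes called (29.4% higher and 27.8% lower), or 43.2% with the GC and length correction. As a reference for low oxygen, all 6 of ANGPTL4, DDIT4, BNIP3, ADM, SLC2A1 and ENO2 rose in hypoxia (median log2 fold change 1.08). In TEPA+hypoxia against TEPA 3 were called (median 0.78), where 0.0969% of all genes were. For example, ANGPTL4 rose by 2.93 ± 0.24 (adjusted p = 0.00084) without TEPA and by 1.55 ± 0.23 (adjusted p = 0.0299) with it. Without hypoxia 2 and 3 all 6 had values above 0 in both arms (medians 0.95 without TEPA and 0.80 with it). JUN (0.49) and JUNB (1.00) thus moved in a fit in which these genes also did.

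Other AP-1 and related partners were called in both directions in hypoxia. Of 12 listed (FOSB, BATF, MAF and ATF relatives), 8 were tested, and 3 were called higher and 2 lower in hypoxia with a median of -0.16. ATF7, which pairs with JUN proteins, fell by 0.83 ± 0.18 (adjusted p = 0.00606), BATF2 rose by 0.52 ± 0.15 (adjusted p = 0.0127) and MAFF by 0.35 ± 0.10 (adjusted p = 0.0149). After the GC and length correction ATF7 stayed called (-0.26, adjusted p = 0.0471), BATF2 was at -0.10 and MAFF at -0.18, and all 8 values were below 0. None of the 8 was called without hypoxia 2 and 3, or in TEPA+hypoxia against TEPA.

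Of 41 further immediate early genes, 34 were tested, with 11 called higher and 8 lower in hypoxia, a median of -0.00, and none called in TEPA+hypoxia against TEPA. GADD45B, a growth arrest gene, rose by 1.21 ± 0.19, IER5L by 1.81 ± 0.31 and ARC by 0.83 ± 0.15 (adjusted p = 0.00601 for each). Their values without hypoxia 2 and 3 were 0.63, 0.76 and 0.73. With the GC and length correction GADD45B was at 0.30 (adjusted p = 0.00741), IER5L at 1.07 (adjusted p = 0.00622) and ARC at 0.21 (adjusted p = 0.327). That correction called 4 of the 34 higher and 9 lower, with a median of -0.16. Without hypoxia 2 and 3, 36 were tested, with a median of 0.07 in hypoxia (23 values above 0 and 13 below). BTG2, an antiproliferative gene, was at 0.64, and DUSP1, a phosphatase that switches off MAP kinases, at 0.86. In TEPA+hypoxia against TEPA the same fit called 6 higher and 1 lower of 36, against 1.32% and 0.842% of all genes. BTG2 (0.71, adjusted p = 0.000877) and ZFP36, which destabilises early transcripts (0.67, adjusted p = 0.0216), rose with DUSP1 (0.44, adjusted p = 0.0413), DUSP5 (0.39), DUSP6 (0.35) and MCL1 (0.29), and IER3 fell by 0.47 (adjusted p = 0.0145). DUSP1 had 98.5, 99.9 and 130 CPM in control, 198, 116 and 149 in hypoxia, 143, 130 and 120 in TEPA, and 175, 180 and 173 in TEPA+hypoxia. Its values in TEPA+hypoxia were above all in TEPA, as for JUN and JUNB. DUSP1, DUSP5, DUSP6 and MCL1 were named after their values were seen.

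The kinases and factors upstream of the early promoters were mostly lower in hypoxia when all libraries were used without the correction. Of 22 tested (MAP kinases, SRF, ELK factors, CREB1 and others), 2 were called higher and 15 lower, with a median of -0.60. MAPK8, a kinase of JUN, fell by 0.49 ± 0.10 (adjusted p = 0.00601), while MAP2K2 rose by 1.29 ± 0.28 (adjusted p = 0.00614). None of the 22 was called without hypoxia 2 and 3 (median -0.21), and none in TEPA+hypoxia against TEPA (median -0.03). With the GC and length correction 20 could be tested, and 1 was called higher and 6 lower, where 43.2% of all genes were called. Their median was -0.19, and MAPK8 was at 0.32.

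Among 16 tested genes known to respond to AP-1, 5 were called higher and 1 lower in hypoxia, with a median of 0.14. TGFB1 rose by 1.77 ± 0.32, TIMP1, an inhibitor of matrix proteases, by 1.47 ± 0.30, and PLAUR, the urokinase receptor, by 0.70 ± 0.14 (adjusted p = 0.00601 for each). The 6 called of 16 are a smaller share than the 57.2% of all genes. In the fit corrected for GC and length TGFB1 (1.09, adjusted p = 0.00625) and TIMP1 (0.36, adjusted p = 0.0153) stayed called and PLAUR was at -0.03. None was called without hypoxia 2 and 3 (median 0.13) or in TEPA+hypoxia against TEPA, where HBEGF, a growth factor of the EGF family, was at -0.22 ± 0.10 (adjusted p = 0.65).

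Around MYC, 9 of 13 partners and regulators were tested, and 2 were called higher and 4 lower in hypoxia, MXD1, a repressor that competes for MAX, falling by 0.84 ± 0.13 and MXD3 rising by 1.57 ± 0.32 (adjusted p = 0.00601 for each). With the GC and length correction 1 of the 9 was called higher and 1 lower. MXD1 was then at -0.12 (adjusted p = 0.505) and MXD3 at 1.05 (adjusted p = 0.00779). Their values without hypoxia 2 and 3 were -0.74 and 0.40. Of 19 tested MYC target genes, 10 were called higher and 8 lower (median 0.45). Those named here, by smallest p, were all higher, with SRM at 1.24 ± 0.26, NME1 at 1.13 ± 0.25 and FBL at 1.20 ± 0.27. The GC and length correction called 5 of the 19 targets higher and 6 lower, with a median of -0.08. NME1 stayed called (0.80, adjusted p = 0.00875), and SRM was at -0.03 and FBL at 0.12. Without hypoxia 2 and 3 the median of the targets was -0.01 and none was called. In TEPA+hypoxia against TEPA the median of the targets in that fit was -0.12 (4 values above 0 and 15 below), and CDK4 fell by 0.34.

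Of 7 tested genes of the integrated stress response, the pathway that induces ATF3, 4 were called higher and none lower in hypoxia (median 0.48), and 2 higher and 1 lower with the GC and length correction (median 0.03). DDIT3, a partner of ATF3, rose by 1.24 ± 0.22 (adjusted p = 0.00601). In TEPA+hypoxia against TEPA, where ATF3 was higher, none was called with all libraries. Without hypoxia 2 and 3 that comparison called CHAC1, a glutathione-degrading enzyme (0.92, adjusted p = 0.0169), and DDIT3 (0.63, adjusted p = 0.0339), where 2.17% of all genes were called. CHAC1 had 4.0, 2.66 and 3.03 CPM in TEPA and 5.53, 6.27 and 6.62 in TEPA+hypoxia, and DDIT3 had 10.4, 10.2 and 10.6 against 17.6, 17.6 and 12.8. Both were higher in all libraries, as ATF3 was.

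The levels of the 10 genes followed each other in part across libraries, which share the split between hypoxia 2 and 3 and the rest. Over the 12 libraries, Pearson's r of log2 CPM was 0.939 for FOSL1 and IER2, 0.930 for JUND and IER2, -0.913 for FOSL2 and IER2 and 0.485 for JUN and JUNB. Over the 10 libraries without hypoxia 2 and 3 the same pairs had 0.432, 0.517, -0.441 and 0.830, in that order. FOSL1 and JUN had 0.305 over 12 libraries and 0.873 over 10. The genes most like JUNB were NOX4 (0.975), ANKRD37 (0.973) and ZNF467 (0.970) over 12 libraries and SERPINH1 (0.959), DUSP1 (0.952) and KCNG1 (0.945) over 10. For JUN they were VMP1 (0.914), SLC2A1 (0.902) and HOXD8 (0.894), and then BANP (0.967), MOB3A (0.966) and DOC2A (0.957). FOSL1 was most like MOB3A over 12 libraries (0.983) and like TMEM45A over 10 (0.927), and FOSL2 like NRP2 (0.994) and JADE2 (0.974). JUND was most like COMMD1 (0.993) and ARF5 (0.980), IER2 like SIGIRR (0.995) and PKP3 (0.968), MYC like HMGA1 (0.965) and PSMF1 (0.954), and ATF3 like KHDRBS3 (0.851) and AP3M2 (0.887). For FOS and EGR1 no likeness was read, since their counts are sparse.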

How the data were processed

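Poly(A) RNA of 12 EA.hy926 libraries was sequenced from a directional kit. Per the submitters' processing notes, the authors used HISAT2 2.1.0, GRCh38 and DESeq; how reads were counted, against which annotation and with which strand option, was not given in the sources used here, so reads of overlapping and antisense genes may be mixed. The deposited values are whole-number counts per gene symbol. Genes kept by filterByExpr were scaled by TMM and tested with edgeR 4.0.16 (limma 3.58.1, R 4.3.3; quasi-likelihood F-test, all 12 libraries, 1 mean per group). A factor for each library (0.772 in hypoxia 2, 0.838 in hypoxia 3, 1.03 to 1.08 elsewhere) entered CPM; 3 counts were worth 0.118 to 0.267 CPM, for counting error only. The labels do not say that replicates are separate cultures, so p-values measure only the spread between these libraries.

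The alternatives were other scalings and filters, DESeq2 1.42.0, limma-voom, a replicate block, only the groups compared, 1 library or hypoxia 2 and 3 left out, and splines (4 degrees of freedom) for GC content and length over 12613 genes (87.3% of those tested); that correction without hypoxia 2 and 3, and the motif TGACATCA, were added later. The 10 genes and all lists were chosen with earlier results of these data known. All 10 genes are named, with up to 3 genes of the smallest p per list in each low-oxygen comparison. Some genes that this rule names are not reported here. Scripts were tested on simulated data. Likeness used log2 CPM (prior count 2) of genes with a mean of at least 5 CPM.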

Additional observations from a re-analysis of the deposited data

Results flagged for a closer look

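The response to low oxygen differed with TEPA for 6 of the 10 genes by the test of the interaction, where 38.8% of all genes were called (log2 difference of the response with TEPA minus that without). The values were -1.29 for JUND, -1.13 for IER2, -1.03 for JUNB and -0.63 for FOSL1, and 1.97 for EGR1 and 0.58 for ATF3. Without hypoxia 2 and 3 the values were -0.61 for JUND, -0.52 for IER2, -0.54 for JUNB, -0.14 for FOSL1, 2.93 for EGR1 and 0.49 for ATF3. None was called there, but neither was any of the 15195 genes tested, so the lost calls alone say nothing about these 6. The sizes of JUND, IER2, JUNB and FOSL1 were smaller in that fit, that of ATF3 was close to its value with all libraries, and that of EGR1 was larger. EGR1 had 3 to 7 counts in the hypoxia libraries. The part of GC content, depth and marker levels in these differences was not tested beyond the corrected values given above.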

How the results depend on the processing

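The number of the 10 genes called in hypoxia against control, 6, was 0 with only the groups compared (0% of all genes were called there, so this 0 says nothing of the 10), 2 without hypoxia 2 and 3 (0.513% of all genes), and 3 with the GC and length correction, both with the replicate block (39.4%) and without hypoxia 2 and 3 (2.28%). For TEPA+hypoxia against TEPA, with 0, it was 2 with only the groups compared (2.54%), 2 without hypoxia 2 and 3 (2.17%), 3 with the correction and without them (5.14%), and 1 by DESeq2 (1.05%). For TEPA+hypoxia against hypoxia, with 5, it was 1 without hypoxia 2 and 3 (15.2%), 0 with the correction as well (9.48%), and 6 with the correction alone (48.3%), 5 of them higher and 1 lower. For the interaction, with 6, it was 3 with the replicate block (31.4%), 3 with the correction (15.9%), 0 with the correction and block (0%), 0 without hypoxia 2 and 3 (0%), and 0 with the correction and without them (0.713%). Leaving out each library in turn gave 4 to 7 calls in hypoxia against control, where 34.7% to 71.8% of all genes were called. It gave 0 to 1 in TEPA+hypoxia against TEPA (0% to 1.72% of all genes) and 0 in TEPA against control (0% to 0.0338%). In TEPA+hypoxia against hypoxia it gave 4 to 7 (45.8% to 73.5%), and in the interaction 0 to 7 (0% to 66%).

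Where either of the fits compared called the gene, signs changed only with the GC and length correction. FOSL1 in hypoxia against control was -0.18, -0.18 with the block and -0.05 without hypoxia 2 and 3; in TEPA+hypoxia against hypoxia it was 0.49, 0.49 and 0.35, and in the interaction 0.44, 0.44 and 0.31. JUND in hypoxia against control was -0.21, -0.21 and -0.10. JUNB in TEPA+hypoxia against hypoxia was 0.21, 0.21 and 0.01, and in the interaction 0.13 and 0.13. FOSL2 in hypoxia against control was 0.05 with the correction and without hypoxia 2 and 3. The cause was not tested. Of all comparisons of a gene under an alternative, 1049 kept their direction and side of the threshold, 107 lost a call with the same direction, 32 gained one, 18 changed sign with a call in either fit, and 27 changed sign with a call in neither. Among the last, MYC in hypoxia against control went from -0.14 to 0.03 and JUN in TEPA+hypoxia against hypoxia from 0.07 to -0.09 without hypoxia 2 and 3.

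Scaling by library totals moved the median of all genes to -0.24 in hypoxia against control (20.1% of genes called higher and 33.5% lower), and to 0.31 in TEPA+hypoxia against hypoxia (39.3% and 20.4%) and 0.32 in the interaction (16% and 12.5%). Same-numbered libraries did not consistently deviate together: the correlation of their deviations ran from -0.36 to 0.319 over 18 pairs, 6 were over 0.1, and 3 of 12 libraries were closest to their own number, so the numbers were not taken to pair samples. Libraries of different numbers also correlated, such as hypoxia 1 and TEPA+hypoxia 3 at 0.488, so a weaker effect of pairing could not be seen this way. At 3 to 27 counts, FOS and EGR1 had wide errors: an EGR1 difference of -1.17 ± 0.50 was not called.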
